A study of Mus musculus with 12 samples.

Results

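The Cyp4 genes encode cytochrome P450 enzymes of the endoplasmic reticulum that place a hydroxyl group at or next to the terminal (omega) carbon of fatty acids. Alcohol and aldehyde dehydrogenases then turn these hydroxy acids into dicarboxylic acids, which are shortened in peroxisomes. In mouse liver Cyp4a10 and Cyp4a14 are classic targets of PPAR-alpha, the nuclear receptor that senses fatty acids, whereas Cyp4a12a and its neighbour Cyp4a12b are known as male-predominant genes, and the Cyp4a12a enzyme omega-hydroxylates arachidonic acid. The 10 genes described here were taken by name from the gene table: Cyp4a10, Cyp4a14, Cyp4a31, Cyp4a32, Cyp4a12a, Cyp4a12b, Cyp4f13, Cyp4f14, Cyp4f15 and Cyp4v3. The table held 54532 genes, of which 11083 averaged 1 FPKM or more over the mice and were tested, and all 10 passed this filter. The mean was taken over all diet groups, so a gene high in only some of them can pass. FPKM counts fragments relative to gene length and to the fragments of the library, so levels can be set side by side between genes.

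Whole liver RNA was sequenced from 12 male C57BL/6J mice, 3 in each of 4 diet groups, all of which started their diet at 5 weeks of age and kept it for 26 weeks. ND mice ate a normal diet and control mice a high-fat diet. HYA mice ate the high-fat diet with 1% HYA, a hydroxylated product of linoleic acid made by lactic acid bacteria of the gut, and LA mice the high-fat diet with 1% linoleic acid (LA) itself. The study used these diets as a model of fatty liver disease and steatohepatitis. Each library was 1 mouse, so the p-values measure the spread between mice of a group, and how these mice were drawn from each diet group was not given in the sources used here.

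The libraries held 17169064 to 25220880 fragments on genes, and the 10 Cyp4 genes held 32 to 17181 fragments each in a mouse, the fewest for Cyp4a31 in ND mice. The liver label was checked on hepatocyte markers: 9 of 10 listed genes, such as Alb and Ttr, were in the table and none was at 0. Their summed level was 41546 to 43109 FPKM in ND, 27901 to 31622 in control, 35896 to 36703 in HYA and 30596 to 31434 in LA mice. Summed stellate cell markers moved the other way, at 42.6 to 55.2 FPKM in ND, 94.8 to 123 in control, 75.0 to 89.8 in HYA and 103 to 126 in LA mice. Kidney tubule markers were listed because the kidney also uses these genes. They summed to at most 0.190 FPKM in any mouse, and 2 of them were at 0 in every mouse. In bulk liver RNA, fewer cells of a type and less RNA per cell cannot be told apart.

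The 6 Cyp4a genes lie within a single cluster on chromosome 4 of GRCm38: Cyp4a12a at chr4:115299046-115332815, Cyp4a12b at chr4:115411624-115439034, Cyp4a14 at chr4:115486200-115496142 on the minus strand, Cyp4a10 at chr4:115518264-115533649, Cyp4a31 at chr4:115563649-115579015 and Cyp4a32 at chr4:115600969-115621602. The cluster holds near-identical copies, which matters for how reads are shared out. Between Cyp4a12a and Cyp4a12b, 23 of 1527 aligned coding bases differed (98.5% identity), and Cyp4a10 was 97.2% identical to Cyp4a32 and 96.6% to Cyp4a31. Cyp4a10 and Cyp4a14, the PPAR-alpha pair, were only 79.5% identical, less than Cyp4a10 and Cyp4a12a at 81.6%. The 60-base coding window below holds exonic bases 704 to 763 of the Cyp4a12a coding sequence and the aligned bases of the others in GENCODE M21 transcripts. Among windows that align without a gap in all 6 genes, it is the first in which Cyp4a12b departs most from Cyp4a12a. Capitals mark every base that differs from Cyp4a12a.
Cyp4a12a: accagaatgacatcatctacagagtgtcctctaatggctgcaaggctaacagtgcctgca
Cyp4a12b: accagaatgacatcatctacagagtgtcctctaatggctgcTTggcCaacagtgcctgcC
Cyp4a10: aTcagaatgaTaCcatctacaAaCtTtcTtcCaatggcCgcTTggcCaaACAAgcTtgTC
Cyp4a32: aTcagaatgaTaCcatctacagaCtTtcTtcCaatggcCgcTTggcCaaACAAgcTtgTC
Cyp4a31: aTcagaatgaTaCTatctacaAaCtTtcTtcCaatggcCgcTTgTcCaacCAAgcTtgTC
Cyp4a14: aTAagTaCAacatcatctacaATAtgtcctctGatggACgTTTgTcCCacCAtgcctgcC
Even in this window only 4 bases separated Cyp4a12b from Cyp4a12a, against 18 to 20 for the other 4 genes. Of all 150-base windows of its transcripts, Cyp4a12a shared 25.6% with Cyp4a12b, Cyp4a32 shared 6.96%, Cyp4a10 4.04% and Cyp4a31 3.54% with another gene, and Cyp4a14 shared none. How reads that map to several genes were counted is not given in the sources used here, so the split between Cyp4a12a and Cyp4a12b is less certain than their sum.

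The 3 Cyp4f genes lie in 1 stretch of chromosome 17, Cyp4f15 at chr17:32685627-32703352, Cyp4f14 at chr17:32905071-32917342 on the minus strand and Cyp4f13 at chr17:32924688-32947402 on the minus strand. Cyp4v3 stands apart at chr8:45304944-45333216 on the minus strand. RefSeq promoter sequence (GRCm38.p6, 250 bases upstream of the start) was at hand for 5 of the 10 genes, and 6 motifs were searched on both strands: the CCAAT box, the TATA motif TATAAA, the nuclear receptor half-site AGGTCA, its direct repeat with 1 spacer base (DR1, which PPAR-alpha and its partner RXR bind and which contains the half-site), the STAT motif TTCNNNGAA and the HNF4 motif CAAAGTCCA. The 3 Cyp4f promoters and that of Cyp4a32 each held a single CCAAT on the opposite strand, which reads ATTGG on the gene's own strand. The 65 bases around it are shown 5′ to 3′ on the gene's strand because they are what the Cyp4f promoters share, with the match in capitals.
Cyp4f13: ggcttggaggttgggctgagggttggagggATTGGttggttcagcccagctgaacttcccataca
Cyp4f14: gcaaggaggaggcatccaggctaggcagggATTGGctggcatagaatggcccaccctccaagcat
Cyp4f15: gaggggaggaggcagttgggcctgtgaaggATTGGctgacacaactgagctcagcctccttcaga
Cyp4a32: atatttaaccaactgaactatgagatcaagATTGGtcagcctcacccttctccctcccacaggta
These stretches are chr17:32947403-32947467 (minus), chr17:32917372-32917436 (minus), chr17:32685551-32685615 (plus) and chr4:115600828-115600892 (plus). The match began 76 bases before the start in Cyp4f13, 64 in Cyp4f14, 78 in Cyp4f15 and 80 in Cyp4a32. A CCAAT on either strand was present in 33.8% of 32851 promoters, and ATTGG on that strand within 80 to 60 bases before the start in 2.44%, a stretch and strand that were set from these 4 matches, so that this share supports nothing about them. The Cyp4v3 promoter matched no motif. Besides these matches, Cyp4f13 held a TTCNNNGAA (7.02% of promoters) and Cyp4a32 a TATAAA on the opposite strand (12.4%), whereas AGGTCA (14.02%), DR1 (0.0335%) and CAAAGTCCA (0.384%) had no match in the 5 promoters. A match is a run of letters and not a shown binding site.

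To see how a prolonged high-fat diet moved these genes, control mice were first compared with ND mice. The family split: Cyp4a14 and Cyp4a31 rose, and Cyp4a12a, Cyp4a12b, the 3 Cyp4f genes and Cyp4v3 fell. Cyp4a10 and Cyp4a32 passed as higher by TPM, as given below, but did not pass the test by FPKM. Thus 8 of the 10 genes changed, 2 up and 6 down, beside 35.3% of all tested genes (16.2% higher and 19.1% lower, adjusted p under 0.05, limma with Benjamini-Hochberg adjustment). The ranges of control and ND mice did not overlap for 8 of the 10 genes, beside 45.6% of all genes. The median log2 fold change of the 10 genes was -0.77, beside -0.04 over all tested genes. The direction of calls over all genes moved with the scaling, since 45.9% of the called genes were higher in control mice by FPKM and 85.1% by TPM, where the median over all genes was 0.18 and that of the 10 genes -0.54.

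**Figure D1:**
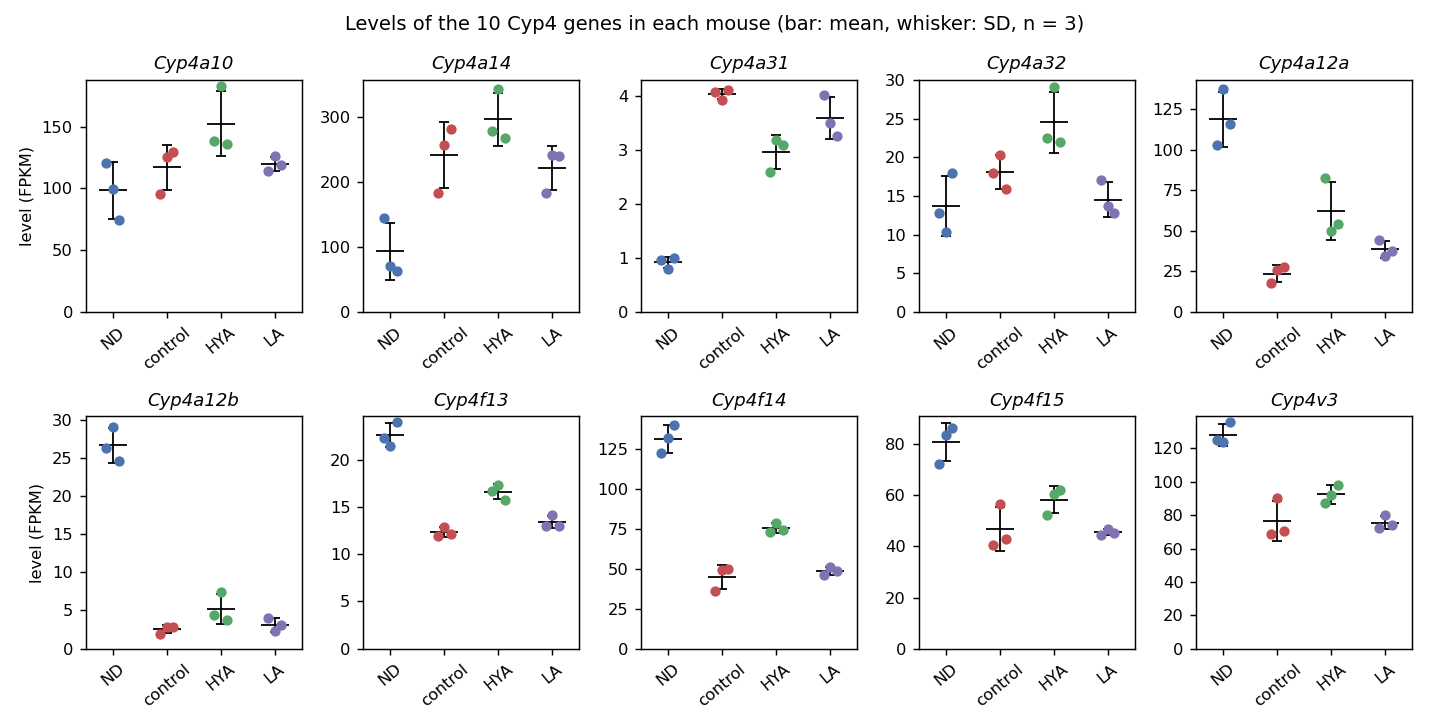
Level (FPKM, linear axes from 0) of each Cyp4 gene in each mouse by diet group; points are mice, the bar is the mean and the whisker the SD (n = 3). Cyp4a14 and Cyp4a31 are higher in control than in ND mice, whereas Cyp4a12a, Cyp4a12b, Cyp4f13, Cyp4f14, Cyp4f15 and Cyp4v3 are highest in ND mice, with HYA means between those of ND and control.

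Cyp4a14, a fatty acid omega-hydroxylase strongly induced by PPAR-alpha agonists, stood at 144, 71.2 and 63.3 FPKM in the 3 ND mice and at 183, 257 and 281 FPKM in the control mice. It was 278, 342 and 267 FPKM in HYA mice and 182, 242 and 239 FPKM in LA mice. Every high-fat mouse was above every ND mouse, and ND mouse 1 was between the other ND mice and the control mice. The control mean was 2.59-fold the ND mean, and the log2 fold change, which is computed throughout on log2(FPKM + 1), was 1.44 ± 0.27 (SE, n = 3 per group, limma, Benjamini-Hochberg adjusted p = 0.00233). Over the 52 tested PPAR-alpha target genes, ND mouse 1 was the highest of the 3 ND mice in 15, against 20 and 17 for the others.

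Cyp4a10, the closest partner of Cyp4a14 in the response to PPAR-alpha agonists, had a far flatter profile. Its level was 121, 99.7 and 74.7 FPKM in ND, 95.8, 126 and 129.8 in control, 139, 183 and 136 in HYA and 114, 126 and 119 in LA mice. The ND and control ranges overlapped, and the log2 fold change of 0.26 (95% interval -0.13 to 0.65) did not pass the test (limma, Benjamini-Hochberg adjusted p = 0.275). On TPM, which rescales each library to the same total, it was 0.50 and passed (limma, adjusted p = 0.044), as it did with voom on the recovered fragments (0.46, limma voom, adjusted p = 0.0449). In ND mice Cyp4a14 made up 41.7% to 54.4% of the sum of the pair, and in control mice 65.7% to 68.4%.

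Cyp4a31 and Cyp4a32, the near copies of Cyp4a10, were low. Cyp4a31 was 0.953, 0.803 and 0.998 FPKM in ND, 4.08, 3.92 and 4.10 in control, 2.59, 3.19 and 3.10 in HYA and 4.02, 3.50 and 3.25 in LA mice. All 9 high-fat mice were above the ND mice, by 4.39-fold for the control mean. After the pseudocount of 1 this is a log2 fold change of 1.39 ± 0.08 (SE, n = 3 per group, limma, Benjamini-Hochberg adjusted p = 1.33e-06). The ND mean of 0.918 FPKM lay below the filter of 1, so Cyp4a31 passed that filter through the high-fat mice. Over the alternatives, which include no filter, its adjusted p in control vs ND was at most 0.000146 (limma). Cyp4a32 was 12.8, 10.3 and 17.9 FPKM in ND, 18.0, 20.3 and 15.9 in control, 22.5, 29.1 and 22.02 in HYA and 17.1, 13.7 and 12.7 in LA mice. Here ND and control ranges overlapped, and the log2 fold change of 0.41 had an adjusted p of 0.108 (limma, Benjamini-Hochberg). It passed on TPM (0.65, limma, adjusted p = 0.0154), with voom (0.61, adjusted p = 0.0187) and without ND mouse 3 (0.61, adjusted p = 0.0186).

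Cyp4a12a fell most steeply in FPKM. It stood at 103, 137 and 116 FPKM in ND, 17.6, 25.9 and 27.5 in control, 82.8, 49.9 and 54.3 in HYA and 44.4, 34.2 and 37.3 in LA mice. No range overlapped with another, in the order ND, HYA, LA, control, and the ND mean of 119 ± 17.2 FPKM (SD, n = 3) was 5.01-fold the control mean of 23.7 ± 5.33. The log2 fold change from ND to control was -2.29 ± 0.21 (SE, n = 3 per group, limma, Benjamini-Hochberg adjusted p = 2.22e-05). Cyp4a12b was 26.3, 29.1 and 24.6 FPKM in ND and 1.90, 2.83 and 2.86 in control mice. It was 4.41, 7.46 and 3.72 FPKM in HYA and 4.05, 2.25 and 3.05 in LA mice, so every high-fat mouse was far below every ND mouse. The ND mean was 10.5-fold the control mean, with a log2 fold change of -2.98 ± 0.22 (SE, n = 3 per group, limma, Benjamini-Hochberg adjusted p = 5.81e-06). Cyp4a12b made up 17.5% to 20.3% of the sum of the pair in ND mice and 9.43% to 9.85% in control mice, with the limit on that split given above.

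Cyp4f14, which is known to omega-hydroxylate leukotriene B4, was 123, 132 and 140.3 FPKM in ND, 36.4, 49.2 and 49.8 in control, 73.0, 78.9 and 74.2 in HYA and 45.9, 50.9 and 48.5 in LA mice. ND, HYA and control mice formed 3 ranges that did not overlap, and LA mice overlapped with control mice. The log2 fold change from ND to control was -1.54 ± 0.11 (SE, n = 3 per group, limma, Benjamini-Hochberg adjusted p = 4.1e-06), a 2.92-fold difference in means.

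The remaining 3 genes fell by less. Cyp4f13 was 22.3, 21.5 and 24.0 FPKM in ND, 11.9, 12.9 and 12.2 in control, 16.7, 17.3 and 15.8 in HYA and 13.0, 14.2 and 13.0 in LA mice. Cyp4f15 was 72.3, 83.7 and 86.6 FPKM in ND, 40.6, 56.6 and 42.9 in control, 52.3, 60.4 and 62.2 in HYA and 44.7, 46.8 and 45.1 in LA mice. Cyp4v3, the mouse counterpart of the human gene mutated in Bietti crystalline dystrophy, was 125, 124 and 136 FPKM in ND, 69.0, 90.2 and 70.5 in control, 87.1, 91.9 and 98.2 in HYA and 72.4, 79.9 and 74.2 in LA mice. In all 3, each ND mouse was above each control mouse, and control mouse 2 was the highest of its group. From ND to control the log2 fold changes were -0.82 for Cyp4f13 (adjusted p = 6.06e-06), -0.79 for Cyp4f15 (adjusted p = 0.000514) and -0.75 for Cyp4v3 (adjusted p = 0.000209, all limma, Benjamini-Hochberg).

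**Figure D2:**
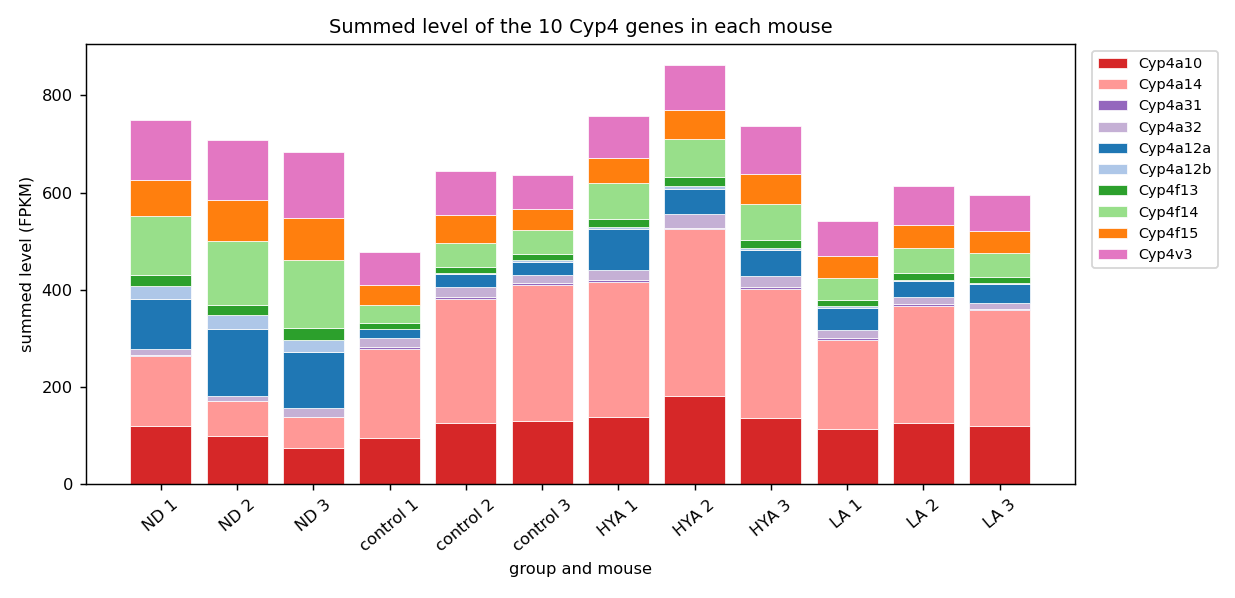
Summed level (FPKM, bars from 0) of the 10 Cyp4 genes in each mouse, stacked by gene. The total is 684 to 751 FPKM in ND, 479 to 644 in control, 737 to 863 in HYA and 542 to 613 in LA mice, and Cyp4a14 takes a larger part of the bar in every high-fat mouse than in any ND mouse.

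The sum over the 10 genes thus differed less than its makeup. FPKM summed over all genes differed by group too, at 407652 to 429286 in ND and 342146 to 368132 in control mice. It was 380803 to 393109 in HYA and 352290 to 361523 in LA mice, so the 10-gene sums do not share 1 scale between groups. The shares of the sum below do not depend on that scale. Cyp4a14 supplied 9.26% to 19.2% of it in ND mice and 38.3% to 44.2% in control, 36.3% to 39.6% in HYA and 33.6% to 40.1% in LA mice. Cyp4a12a supplied 13.7% to 19.3% in ND, 3.67% to 4.32% in control, 5.79% to 10.9% in HYA and 5.58% to 8.18% in LA mice. Cyp4f14 supplied 16.3% to 20.5% in ND, 7.60% to 7.82% in control, 9.15% to 10.1% in HYA and 8.14% to 8.46% in LA mice. Control mouse 1 had the smallest sum of the 12 mice, 479 FPKM, and the lowest control value of 8 of the 10 genes.

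**Figure D3:**
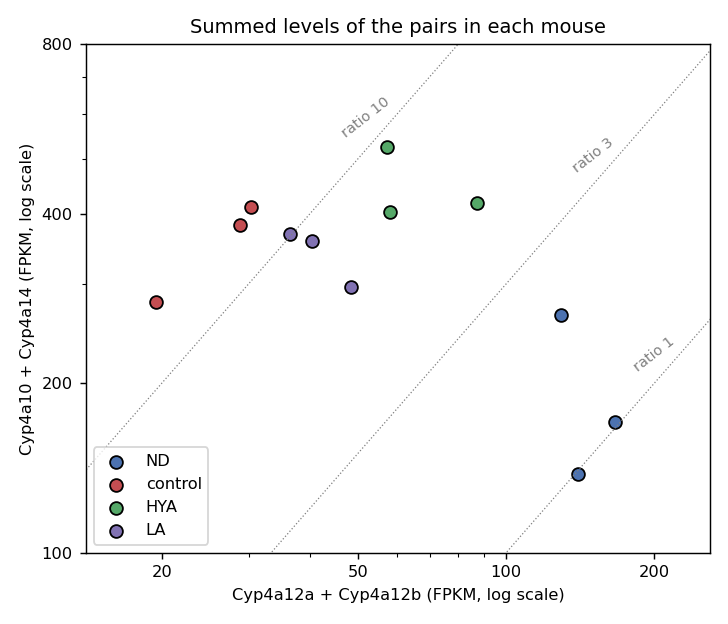
Summed FPKM of Cyp4a10 and Cyp4a14 (vertical, log scale) against that of Cyp4a12a and Cyp4a12b (horizontal, log scale) in each mouse; dotted lines mark constant ratios. Control mice sit at ratios of 13.3 to 14.3, LA mice at 6.13 to 10.1, HYA mice at 4.78 to 9.14 and ND mice at 0.984 to 2.05.

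The contrast between the PPAR-alpha pair and the Cyp4a12 pair can be put as a ratio of their summed FPKM within each mouse. It was 2.05, 1.03 and 0.984 in ND, 14.3, 13.3 and 13.5 in control, 4.78, 9.14 and 6.95 in HYA and 6.13, 10.1 and 8.87 in LA mice. All control mice were above all other mice and all ND mice below, whereas HYA and LA mice overlapped. The control ratio hardly varied (13.7 ± 0.55, SD, n = 3), although the sums themselves differed, and that of HYA mice did (6.95 ± 2.18).

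Other genes of these pathways were then read from lists. Of 52 tested PPAR-alpha target genes, 31 rose and 2 fell in control relative to ND mice, with a median log2 fold change of 0.34 beside -0.04 over all tested genes. Among them Vnn1, the pantetheinase vanin-1, rose from 22.8 ± 1.21 to 72.4 ± 2.85 FPKM (SD, n = 3), and Plin2, the lipid droplet protein perilipin 2, from 143 ± 11.03 to 356 ± 14.7. The peroxisomal transporter Abcd2 (also on the female-biased list) rose from 2.72 ± 0.0842 to 10.6 ± 0.0679 FPKM, whereas Acsl1, an acyl-CoA synthetase, fell from 127 ± 2.35 to 79.6 ± 12.6. These 4 genes had limma log2 fold changes of 1.63, 1.32, 1.64 and -0.68, with Benjamini-Hochberg adjusted p = 3.63e-08, 2.61e-07, 5.59e-08 and 0.000372. Of 15 tested PPAR receptors and partners, none rose and 4 fell (median -0.03), fewer calls than the 35.3% over all tested genes, among them the coactivators Med1 (-0.19, limma, adjusted p = 0.016) and Ncoa2 (-0.21, adjusted p = 0.0177).

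In the steps that follow the hydroxylase, 7 of 22 tested genes rose and 4 fell (median log2 fold change 0.15), beside the 16.2% higher and 19.1% lower of all tested genes. Aldh3a2, the fatty aldehyde dehydrogenase, rose from 108 ± 1.98 to 220.4 ± 8.15 FPKM (log2 fold change 1.02, limma, Benjamini-Hochberg adjusted p = 6.79e-06). Adh4, an alcohol dehydrogenase, fell from 147 ± 10.01 to 59.5 ± 8.52 FPKM (-1.30, limma, adjusted p = 8.69e-06). Of 7 genes of electron supply to P450 enzymes or of haem metabolism, 2 rose and 3 fell, beside 16.2% higher and 19.1% lower of all tested genes. Those named by rule moved by at most 0.53 on the log2 scale, for example Cyb5r3 (0.34) and Pgrmc1 (-0.31, both limma, adjusted p = 0.00158). Of the 17 other Cyp4 genes and pseudogenes in the table, 3 were high enough to test. Of these, Cyp4f16 rose from 0.639 to 1.40 FPKM (0.54, limma, adjusted p = 0.00489). It averaged 1.05 FPKM over the 12 mice, so it passed the filter of 1 narrowly and through the groups where it was higher.

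Genes known to be higher in male than in female mouse liver fell almost throughout. Of 28 tested male-biased genes, 26 fell and none rose, with a median log2 fold change of -1.92. Serpina1e, a secreted protease inhibitor, went from 3274 ± 421 to 29.0 ± 12.1 FPKM, and Cyp2d9, a steroid hydroxylase, from 613 ± 48.9 to 155 ± 11.7. Of 31 listed female-biased genes, 12 passed the filter on the mean over all mice, which a gene high only in high-fat mice can pass. The filter itself thus favoured genes that rose. Of these 12 genes 11 rose and 1 fell, with a median of 1.84. Cyp17a1, a steroid hydroxylase and lyase, went from 1.67 ± 0.0796 to 59.6 ± 9.61 FPKM. Of 12 tested genes of the growth hormone axis 5 fell and none rose, beside 19.1% lower and 16.2% higher over all tested genes. Those that fell included Igfals (-1.53, limma, Benjamini-Hochberg adjusted p = 2.23e-06) and the receptor gene Ghr (-0.73, adjusted p = 0.000159). Beside these, 8 of 9 hepatocyte markers fell (median -0.51) and 7 of 10 stellate cell markers rose (median 0.88). The part of cell makeup in the falls of the Cyp4 genes was not tested. Of the other markers, 4 of 9 macrophage genes rose and 1 fell, and 3 of 8 endothelial genes rose, beside 35.3% called over all tested genes. The few bile duct, leukocyte and adipocyte genes high enough to test gave 1 of 2 higher, 1 of 2 higher and 1 of 1 lower.

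**Figure D4:**
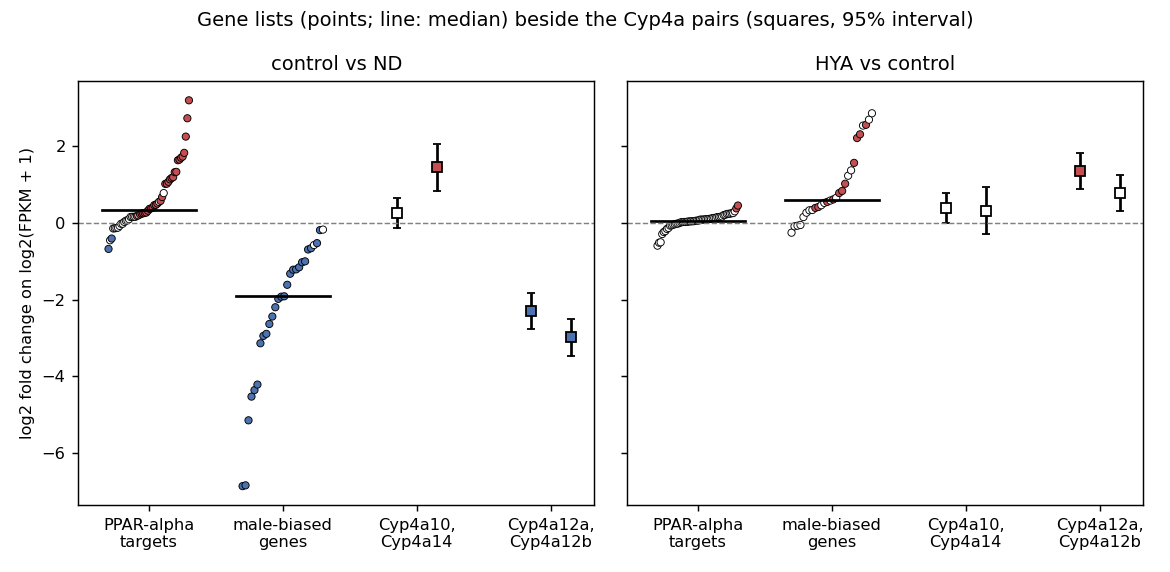
log2 fold change on log2(FPKM + 1) of each tested PPAR-alpha target and male-biased gene (points, sorted, with the median as a line) beside the Cyp4a pairs (squares with 95% intervals); red and blue fill mark genes that rose or fell at adjusted p under 0.05 (limma). In control vs ND the list medians are 0.34 and -1.92, and in HYA vs control 0.06 and 0.59.

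The second comparison asked how HYA moved these genes within the high-fat diet. Relative to control mice, Cyp4a12a, Cyp4f14 and Cyp4f13 rose and Cyp4a31 fell, and the PPAR-alpha pair did not pass the test. That is 4 of the 10 genes, 3 up and 1 down, beside 2.8% of all tested genes (1.57% higher and 1.23% lower, limma, Benjamini-Hochberg). This background of 174 higher and 136 lower genes itself rested on single libraries: among the control mice it ran from 17 and 12, with control mouse 1 left out, to 377 and 276, with control mouse 2 left out, and no gene passed with HYA mouse 2 left out or in the fit of the 2 groups alone. Leaving out an ND or LA mouse gave 73 to 125 higher and 65 to 107 lower genes. The HYA and control ranges did not overlap for 7 of the 10 genes, beside 21.6% of all genes, and the median log2 fold change of the 10 was 0.39 beside 0.02. By FPKM 56.1% of the called genes were higher in HYA mice and by TPM 17.7%, where these medians were 0.27 and -0.10. ND, control, HYA and LA mice shared 1 fit, and control mice serve in several of the comparisons, so these comparisons are not independent of each other.

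Cyp4a12a had a mean of 62.4 ± 17.9 FPKM in HYA mice (SD, n = 3), 2.64-fold that of control mice, and HYA mouse 1 was the highest of the high-fat mice at 82.8 FPKM. Its log2 fold change was 1.35 ± 0.21 (SE, limma, Benjamini-Hochberg adjusted p = 0.0168). The call was lost without control mouse 1 (1.16, adjusted p = 0.0571), without HYA mouse 2 (1.49, adjusted p = 0.0671) and in a fit of these 2 groups alone (adjusted p = 0.13). Cyp4a12b, at 5.20 ± 1.99 against 2.53 ± 0.546 FPKM, had a log2 fold change of 0.78 (95% interval 0.30 to 1.25) that did not pass (adjusted p = 0.0827).

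Cyp4f14 had a mean of 75.4 ± 3.12 FPKM in HYA and 45.1 ± 7.59 in control mice (SD, n = 3). The log2 fold change was 0.74 ± 0.11 (SE, limma, Benjamini-Hochberg adjusted p = 0.0166), lost without HYA mouse 2 (adjusted p = 0.0801) and in the fit of the 2 groups alone (adjusted p = 0.128). Cyp4f13 rose by 0.40 ± 0.06 (adjusted p = 0.0168), lost in the same settings (adjusted p = 0.0856 and 0.128) and without control mouse 1 (adjusted p = 0.0676). Cyp4f15 (0.32, adjusted p = 0.166) and Cyp4v3 (0.28, adjusted p = 0.152) did not pass with all mice. Both passed without control mouse 2, which was the highest control mouse for them (0.47, adjusted p = 0.0197, and 0.40, adjusted p = 0.0134).

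Cyp4a31 was the 1 gene of the 10 whose mean was lower in HYA than in control mice, 2.96 ± 0.322 against 4.03 ± 0.0985 FPKM (SD, n = 3). Its log2 fold change of -0.35 barely passed (limma, Benjamini-Hochberg adjusted p = 0.0487) and was lost without any 1 mouse other than LA mouse 1 (adjusted p = 0.0531 to 0.178), with a pseudocount of 0.1 (0.0665), with no filter on low values (0.101) and in the fit of the 2 groups alone (0.151). Cyp4a10 had a mean of 152 ± 26.3 FPKM in HYA and 117 ± 18.5 in control mice, and although the ranges did not overlap, the log2 fold change of 0.38 (95% interval -0.01 to 0.77) had an adjusted p of 0.282 (limma, Benjamini-Hochberg). Cyp4a14, at 296 ± 40.3 against 240.4 ± 50.9 FPKM, had overlapping ranges and a log2 fold change of 0.31 (-0.29 to 0.92, adjusted p = 0.608). For Cyp4a32 it was 0.42 (0.01 to 0.82, adjusted p = 0.251). Outside the 10, Cyp4f16 was at 0.737 FPKM in HYA and 1.40 in control mice (-0.46, limma, adjusted p = 0.0673).

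**Figure D5:**
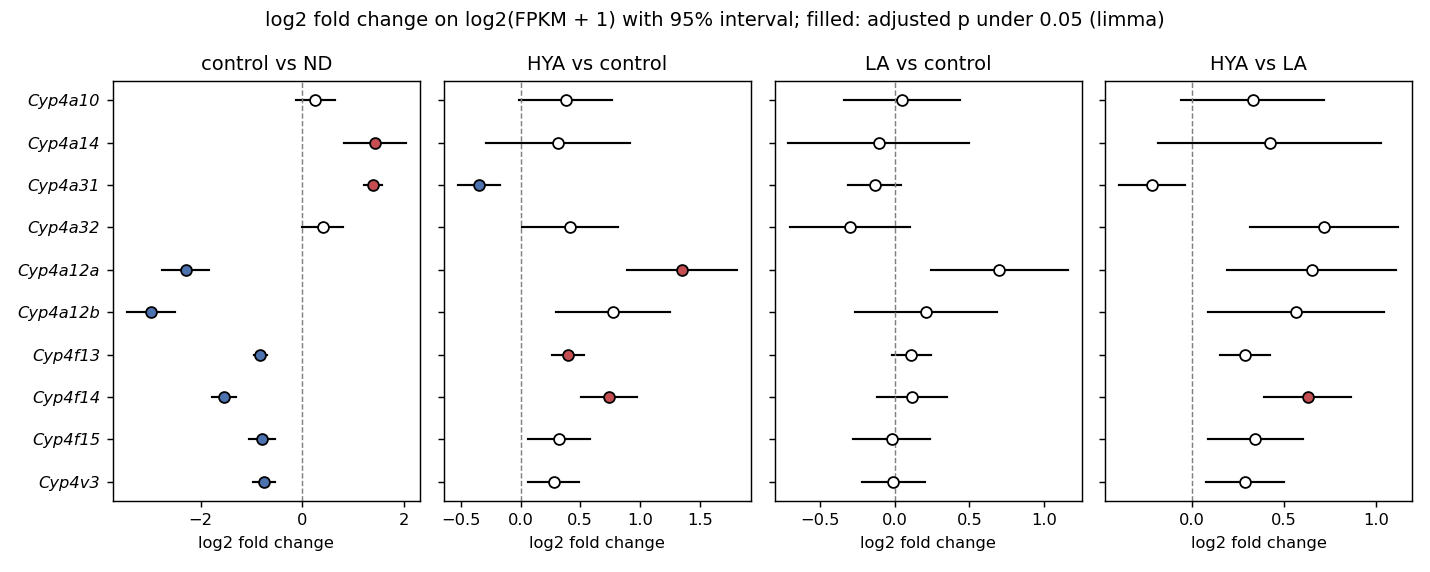
log2 fold change (first group over second, on log2(FPKM + 1)) of each Cyp4 gene in 4 comparisons, with 95% intervals; red and blue fill mark genes that rose or fell at adjusted p under 0.05 (limma), and the horizontal scales differ between panels. Filled points number 8 in control vs ND, 4 in HYA vs control, 0 in LA vs control and 1 in HYA vs LA.

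Around these genes, 11 of 28 male-biased genes rose in HYA relative to control mice and none fell (median log2 fold change 0.59, beside 0.02 over all tested genes). The uptake transporter Slco1a1 rose from 10.5 ± 7.06 to 47.9 ± 10.5 FPKM (2.30, limma, Benjamini-Hochberg adjusted p = 0.0271), and C8b, a complement component, from 16.6 ± 2.94 to 29.98 ± 1.04 (0.83, adjusted p = 0.0141). Without HYA mouse 2, and in the fit of the 2 groups alone, no male-biased gene passed, nor did any other of the 11083 tested genes. Of 12 female-biased genes 4 fell, among them Cyp2b9 (-1.04, adjusted p = 0.0271), and of the growth hormone axis Igfals rose (0.57, adjusted p = 0.0205). Of 52 PPAR-alpha target genes only Acsl1 (0.45, adjusted p = 0.0407) and Slc27a2 (0.37, adjusted p = 0.0487) rose, and none fell, with a median of 0.06. Of the steps after the hydroxylase Adh4 (0.49, adjusted p = 0.0357) and the same Acsl1 rose, and no gene passed among the PPAR partners, the electron donors or the other Cyp4 genes. None of 9 hepatocyte markers passed (median 0.25), and 3 of 10 stellate cell markers and 1 of 2 bile duct markers fell, with no call among macrophage, endothelial, leukocyte or adipocyte markers. The part of cell makeup in the higher Cyp4a12a, Cyp4f13 and Cyp4f14 levels was not tested.

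LA at the same share of the diet gave no call. Relative to control mice, 0 of the 10 genes and 0% of all tested genes passed (limma, Benjamini-Hochberg adjusted p = 0.999 for every Cyp4 gene), and voom likewise called 0 genes. Before adjustment, 294 genes (2.65%) had a p under 0.05, and 1 of them was among the 10, Cyp4a12a, whose log2 fold change was 0.70 (95% interval 0.24 to 1.16, unadjusted p = 0.00647, n = 3 per group, limma). The LA and control ranges did not overlap for Cyp4a12a and Cyp4f13, 2 of the 10 genes, beside 7.55% of all genes. For the PPAR-alpha pair the log2 fold changes were 0.05 (-0.34 to 0.43) for Cyp4a10 and -0.11 (-0.72 to 0.50) for Cyp4a14. No gene of any list passed in this comparison, and the median log2 fold change of the 10 Cyp4 genes was 0.02.

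HYA and LA could be compared directly, as 1 pair of compounds given at the same 1% of the diet for the same 26 weeks. HYA carries a hydroxyl group where LA has a double bond. Of the 10 genes Cyp4f14 alone differed past the threshold, higher in HYA mice, beside 0.487% of all tested genes (0.235% higher, limma, Benjamini-Hochberg). Its mean was 75.4 ± 3.12 FPKM with HYA and 48.4 ± 2.51 with LA (SD, n = 3), 1.56-fold, with a log2 difference of 0.63 (95% interval 0.39 to 0.86, adjusted p = 0.038). The call was lost without any 1 ND, HYA or LA mouse (adjusted p = 0.0538 to 0.212) and with no filter on low values (adjusted p = 0.0855), with a difference of 0.59 to 0.66 throughout. Over all genes, the 26 higher and 28 lower genes fell to none without HYA mouse 2 or LA mouse 1 or 2 and with no filter, and were 139 and 90 with control mouse 1 left out and 152 and 107 with control mouse 2 left out. The HYA and LA ranges did not overlap for 9 of the 10 genes, all but Cyp4a12b, beside 25.2% of all genes, and the median log2 difference was 0.38 beside 0.01.

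For the other 9 genes the intervals of the HYA and LA difference state what these mice allow. Cyp4a32 (0.72, 95% interval 0.32 to 1.12, limma, Benjamini-Hochberg adjusted p = 0.086), Cyp4a12a (0.65, 0.19 to 1.11, adjusted p = 0.143) and Cyp4a12b (0.57, 0.09 to 1.04, adjusted p = 0.21) had the largest differences. Cyp4f13 (0.29, 0.16 to 0.42, adjusted p = 0.0626), Cyp4f15 (0.35, 0.09 to 0.61, adjusted p = 0.166) and Cyp4v3 (0.29, 0.08 to 0.50, adjusted p = 0.157) differed by less, and Cyp4a31 was lower with HYA (-0.21, -0.39 to -0.04, adjusted p = 0.206). The intervals of the PPAR-alpha pair included 0, with Cyp4a10 at 0.33 (-0.06 to 0.72, adjusted p = 0.366) and Cyp4a14 at 0.42 (-0.18 to 1.03, adjusted p = 0.471). In the lists, 3 of 28 male-biased genes were higher and 4 of 12 female-biased genes lower with HYA than with LA, Igfals was higher, and of 52 PPAR-alpha targets limma called none and voom 4.

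HYA mice still differed from ND mice in all 10 genes, beside 16.6% of all tested genes (8.72% higher and 7.85% lower, limma, Benjamini-Hochberg), and no range overlapped, beside 35.9% of all genes. Of the 10 genes 4 were higher: Cyp4a14 by 1.75 on the log2 scale (adjusted p = 0.00168), Cyp4a31 by 1.04 (1.74e-05), Cyp4a32 by 0.82 (0.0113) and Cyp4a10 by 0.64 (0.0308). The other 6 were lower, from -0.42 for Cyp4f13 (adjusted p = 0.000955) to -2.20 for Cyp4a12b (9.15e-05), with Cyp4a12a at -0.94 (0.0111). Cyp4a10 lost its call without ND mouse 2 or 3 or HYA mouse 1 or 2 (adjusted p = 0.0525 to 0.111). It was also lost with no filter on low values (0.0769) and in the fit of the 2 groups alone (0.0687, limma). Cyp4f15 (-0.46, 0.0214) lost its call without ND mouse 2 or 3 or HYA mouse 1 (0.0699 to 0.0797) and with no filter (0.0518, limma). In HYA mice Cyp4a12a was at 0.526 of its ND mean, Cyp4f14 at 0.573 and Cyp4a12b at 0.195.

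The genes whose profile over the mice was most like that of 4 of these genes were ranked by Pearson's r on log2(FPKM + 1), as a description across mice that share diets and library scale. For Cyp4a14 over the 12 mice these were Ech1 (r = 0.940), Hadh, Crat, Parva and Mgll, of which Ech1, Crat and Mgll are on the PPAR-alpha list, and over the 9 high-fat mice Plpp1 (r = 0.952) led. For Cyp4a10 they were Prkag2 (r = 0.861), Cyp4a14 (r = 0.847), Mospd2, Cyp39a1 and Xrcc3, and Rnf167 (r = 0.990) over the 9 high-fat mice. For Cyp4a12a they were Rnft1 (r = 0.964), Ces3a, Tmem30a, Ugt3a2 and Arhgap42, and Dpagt1 (r = 0.963) over the 9. For Cyp4f14 they were Gpld1 (r = 0.996), Serpind1, Cyp2c54, Proc and Cyp7b1, and Cyp2c54 (r = 0.990) led over the 9. Within the family, over the 9 high-fat mice, Cyp4f15 and Cyp4v3 (r = 0.984), Cyp4f13 and Cyp4f14 (r = 0.942) and Cyp4a10 and Cyp4a14 (r = 0.910) had the highest r.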

How the data were processed

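Liver RNA-seq of 12 mice was deposited as 1 table of FPKM values per gene. Per the submitters' processing notes, the authors used fastp, HISAT2 2.0.5 and featureCounts 1.5.0-p3 on GRCm38, and then normalised fragment counts to FPKM. The study's methods name TPM, but the deposited columns sum to 342146 to 429286 and were read as FPKM. Multiplied by gene length and divided by a step size fitted to each library, 100% of the low values gave whole fragments within 0.05. Values with many fragments were not in this check. The handling of multiply mapped reads and of strand is not given in the sources used here. Cyp4a12b overlaps an antisense pseudogene listed at 0, and Cyp4v3 a gene on the same strand at no more than 0.0588 FPKM.

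Genes averaging 1 FPKM or more over the mice were tested on log2(FPKM + 1) with limma 3.58.1 (R 4.3.3), with all 12 mice in 1 fit and no covariate, and Benjamini-Hochberg adjustment over all 11083 genes. A gene was called at an adjusted p under 0.05. The method was tested on simulated data with the same dispersion for every gene and no shift in scale between groups. That test therefore cannot speak to the differences in library scale between these groups. Because the members and lists were chosen with earlier results of these data known, no list was tested, and counts and medians are given instead. Named were all 10 Cyp4 genes, of each list genes among the 4 with the lowest p in control vs ND and in HYA vs control, and genes among the 5 most like in profile. The lists were PPAR-alpha targets, steps after the hydroxylase, PPAR receptors and partners, P450 electron donors and other Cyp4 genes. Others were male-biased and female-biased genes and the growth hormone axis. Marker lists covered hepatocytes, stellate cells, macrophages, endothelium, bile duct, leukocytes, adipocytes and kidney tubules. Gene coordinates were those of the file and matched GENCODE M21 for 9 of the 10 genes, and coding sequences came from its transcripts. The authors' own fold changes and p-values were not used. Alternatives were another pseudocount, no filter, a filter of 10 mean fragments, TPM, size factors, voom, fits of 2 groups, a replicate block, a fold threshold, and leaving out each mouse.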

Additional observations from a re-analysis of the deposited data

How the results depend on the processing

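In control vs ND, 8 of the 10 Cyp4 genes were called, 8 to 9 without any 1 mouse, and 5 when a log2 fold change over 1 was also asked. On TPM, Cyp4a10 (adjusted p = 0.044, limma) and Cyp4a32 (0.0154) were called as higher too, and no call was lost. With voom the same held (0.0449 and 0.0187, limma voom). In HYA vs control 4 were called, 0 in a fit of the 2 groups alone, 1 with the fold threshold and 0 to 5 without any 1 mouse, with 1 left without control mouse 1 and 0 without HYA mouse 2. Over all 11083 genes, none was called in the fit of the 2 groups or without HYA mouse 2, and 17 higher and 12 lower without control mouse 1, against 174 and 136. In HYA vs LA 1 was called, 0 with no filter on low values or with the fold threshold, and 0 to 3 without any 1 mouse. In HYA vs ND 10 were called, 3 with the fold threshold and 8 to 10 without any 1 mouse. Cyp4a10 and Cyp4f15 were lost with no filter on low values, and Cyp4a10 in the fit of the 2 groups alone. In LA vs control none was called under any alternative.

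Small LA vs control values turned sign when a mouse was left out: Cyp4a10 ranged from -0.090 to 0.13, Cyp4a14 from -0.29 to 0.022, Cyp4f14 from -0.032 to 0.19, Cyp4f15 from -0.11 to 0.12 and Cyp4v3 from -0.079 to 0.11. The cause was not tested. The within-mouse log2 difference of the mean of Cyp4a10 and Cyp4a14 from that of Cyp4a12a and Cyp4a12b in control mice was 4.18, 4.41 with a pseudocount of 0.1 and 4.34 on TPM. In HYA vs control, the 11 male-biased calls were 0 in the fit of the 2 groups, 2 with no filter and 0 to 16 without any 1 mouse, and the 2 PPAR-alpha target calls were 6 with voom (2 higher and 4 lower) and 0 to 6 without any 1 mouse.

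Between mice of different groups, 3 of 18 same-numbered pairs correlated above 0.1 (range -0.40 to 0.29), against 7 of 36 pairs with unlike numbers (-0.38 to 0.39). These correlations did not set same-numbered mice apart, but a batch shared by some mice was not tested. With a replicate block, Cyp4a31 lost its call in HYA vs control (adjusted p = 0.0684, limma), with no other Cyp4 call changed. Calls over all genes went from 174 higher and 136 lower to 253 and 196 in HYA vs control. In HYA vs LA they went from 26 higher and 28 lower to 146 and 112. Groups of 3 mice, and shared sequence between Cyp4a12a and Cyp4a12b, limit all of these values.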
